A study of Mus musculus with 6 samples.

Results

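Amino acids and related small molecules enter and leave cells through solute carriers. The genes described here are those of the SLC1, SLC3, SLC6, SLC7, SLC16, SLC36, SLC38 and SLC43 families. These families were chosen with earlier results of these data known, and their genes were taken by gene symbol. They comprised 65 genes with 94 probes, out of 18138 gene symbols and 25697 probes on the array. Lung RNA came from FVB mice, all male and at postnatal day 6, and each group, hSRY-ON and hSRY-OFF, had 3 mice with 1 Illumina MouseRef-8 BeadChip each. In the study's design, a single copy of a transgene was inserted at the H11 locus. Before recombination its CAG promoter, which is active in most cell types, drives the red fluorescent protein DsRed2 and leaves FLAG-tagged human SRY silent. This is the state named hSRY-OFF. Cre recombinase passed on in the eggs of Ddx4-Cre mothers removed DsRed2 in the early embryo, after which the same promoter drove human SRY and the green fluorescent protein EGFP throughout the body, the state named hSRY-ON. The hSRY-ON mice chosen for the arrays had not inherited the Cre transgene. All mice were of the same strain, and whether each hSRY-OFF mouse carried the transgene rests on its label, since the study also used littermates as controls. The comparison asked which lung transcripts differed between the groups at this age.

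By way of background, SLC7 light chains pair with an SLC3 heavy chain to exchange amino acids across the plasma membrane, while the SLC7 cationic transporters carry arginine, lysine and ornithine without a partner. SLC1 proteins take up glutamate or exchange small neutral amino acids, SLC6 and SLC38 proteins use the sodium gradient to import amino acids, taurine, creatine and monoamines, and SLC36 proteins are proton-coupled carriers, in part of the lysosome. SLC16 proteins mostly carry lactate, pyruvate and other monocarboxylates, with aromatic amino acids as the cargo of a minority. In the lung these carriers supply cystine and glycine for glutathione, arginine for nitric oxide and arginase, and glutamine for growing cells. Several of them are transcribed under ATF4, a factor induced when amino acids are short.

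The arrays detected between 13191 and 14134 probes at a detection p under 0.05, and the median raw intensity of an array lay between 177.1 and 204.0. All 8 lung epithelial markers examined, among them Sftpc, Sftpb, Ager and Scgb1a1, were detected on every array, which matches the tissue label. Their summed level on the log2 scale was 16.68 to 16.72 in hSRY-OFF and 16.74 to 16.88 in hSRY-ON, with 2 of 8 higher (Sftpb by 0.67 and Sftpd by 0.39) and 0 lower. No row was named for human SRY, EGFP or DsRed2 (0 rows), so the state of the transgene was not checked on these arrays. Markers of other cell types also differed between the groups. The summed level of the 7 macrophage markers tested was between 14.48 and 14.60 in hSRY-OFF and between 15.03 and 15.51 in hSRY-ON, with 5 of 7 higher and 0 lower. That of 5 neutrophil markers was 12.18 to 12.36 in hSRY-OFF and 13.04, 13.59 and 14.87 in hSRY-ON, with 3 of 5 higher. Markers of proliferating cells ran the other way, at 12.84 to 13.14 in hSRY-OFF and 11.24, 11.29 and 12.37 in hSRY-ON, with 5 of 7 lower. Lymphocyte markers fell in 4 of 5 cases, from 10.54 to 10.81 down to 9.37, 9.48 and 10.38, and endothelial markers fell in 3 of 7 and rose in 1. Of 3 thymocyte markers tested, 2 fell, and of 6 cardiac markers 1 rose and 1 fell. The 3 liver markers tested rose while albumin (Alb) was detected on no array. Neither the 6 erythroid nor the 5 skeletal muscle markers tested passed the threshold in either direction, and 0 adipocyte markers passed the filter. The part of these cell types in the transporter results was not tested. In whole lung, fewer cells of a type and less RNA per cell cannot be told apart.

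Of the 94 transporter probes, 44 (46.8%) for 37 genes were detected on at least 3 of the 6 arrays and were tested, against 53.9% of all probes on the array. A further 28 genes had no probe past this filter, and 20 genes were detected on no array at any probe. The number of transporter probes detected was 40, 34 and 35 on the hSRY-OFF arrays and 42, 45 and 44 on the hSRY-ON arrays. Of the probes detected in a single group, 10 were seen in hSRY-ON arrays only and 5 in hSRY-OFF arrays only. Each hSRY-ON array thus detected more of these probes than any hSRY-OFF array did, by a small margin over hSRY-OFF replicate 1. The total number of probes detected was lower on each hSRY-ON array than on hSRY-OFF replicates 1 and 2. Detection in a single group was not counted over all probes, so the split of 10 and 5 has no share beside it.

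Between the groups, 14 transporter probes for 14 genes passed an adjusted p of 0.05 (limma, Benjamini-Hochberg over all 13841 tested probes), which is 31.8% of those tested against 26.9% of all tested probes. Higher values in hSRY-ON accounted for 11 of these (25% of tested transporter probes, with 13.6% of all tested probes called higher), and lower values for 3 (6.82%, with 13.3% of all called lower). Values of the groups did not overlap at 21 of 44 transporter probes (47.7%), close to the 46.6% of all tested probes. The median log2 change was 0.25, also with probes detected in a single group set at their bound, and 32 of 44 changes (72.7%) were above 0. The corresponding values over all tested probes were -0.03 and 46.8%. At 5 probes the fitted change was 2-fold or more, all of them higher in hSRY-ON, or at 4 with bounds in place of fitted values.

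Most higher calls were on dim probes that were not detected on every array (8 of 11). Of the 11 higher probes, 4 (Slc7a11, Slc6a15, Slc7a3 and Slc1a2) were detected on no hSRY-OFF array, and such probes passed the filter only through the group in which they were high. Among the 23 transporter probes detected on all 6 arrays, 3 were higher and 3 lower, which is 13% each against 15.1% and 14.3% of all probes so detected. With the arrays of 1 mouse left out, the number called was 3 without hSRY-OFF replicate 1, 3 without replicate 2 and 6 without replicate 3, and 5 without hSRY-ON replicate 2. These were 7.14%, 6.82%, 14.6% and 12.8% of the transporter probes then tested, below the 11.2%, 12.1%, 15.5% and 17.7% of all probes called in the same fits. Without background correction 9 transporter probes were called (20.5%, against 29.6% of all probes), of which 7 were among the 14. The excess of called transporter probes over the array thus turned into a deficit in these fits. It remained with cyclic loess or median scaling as the normalization (14 of 44 each, with 26.6% and 25.5% of all probes called). Without hSRY-ON replicate 1 the number was 13 of 39, with 32.3% of all probes called. Without hSRY-ON replicate 3 it was 10 of 38, with 27.7%. Slc16a11 kept its call under all 19 alternatives, and Slc7a11 and Slc6a15 under the 14 in which they were tested. Those 2 genes, detected on hSRY-ON arrays only, dropped out when an hSRY-ON array was left out. They also dropped out under filters that needed detection in both groups, so these fits could not test their calls. Each of the other called genes lost its call under 3 to 10 alternatives.

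**Figure D1:**
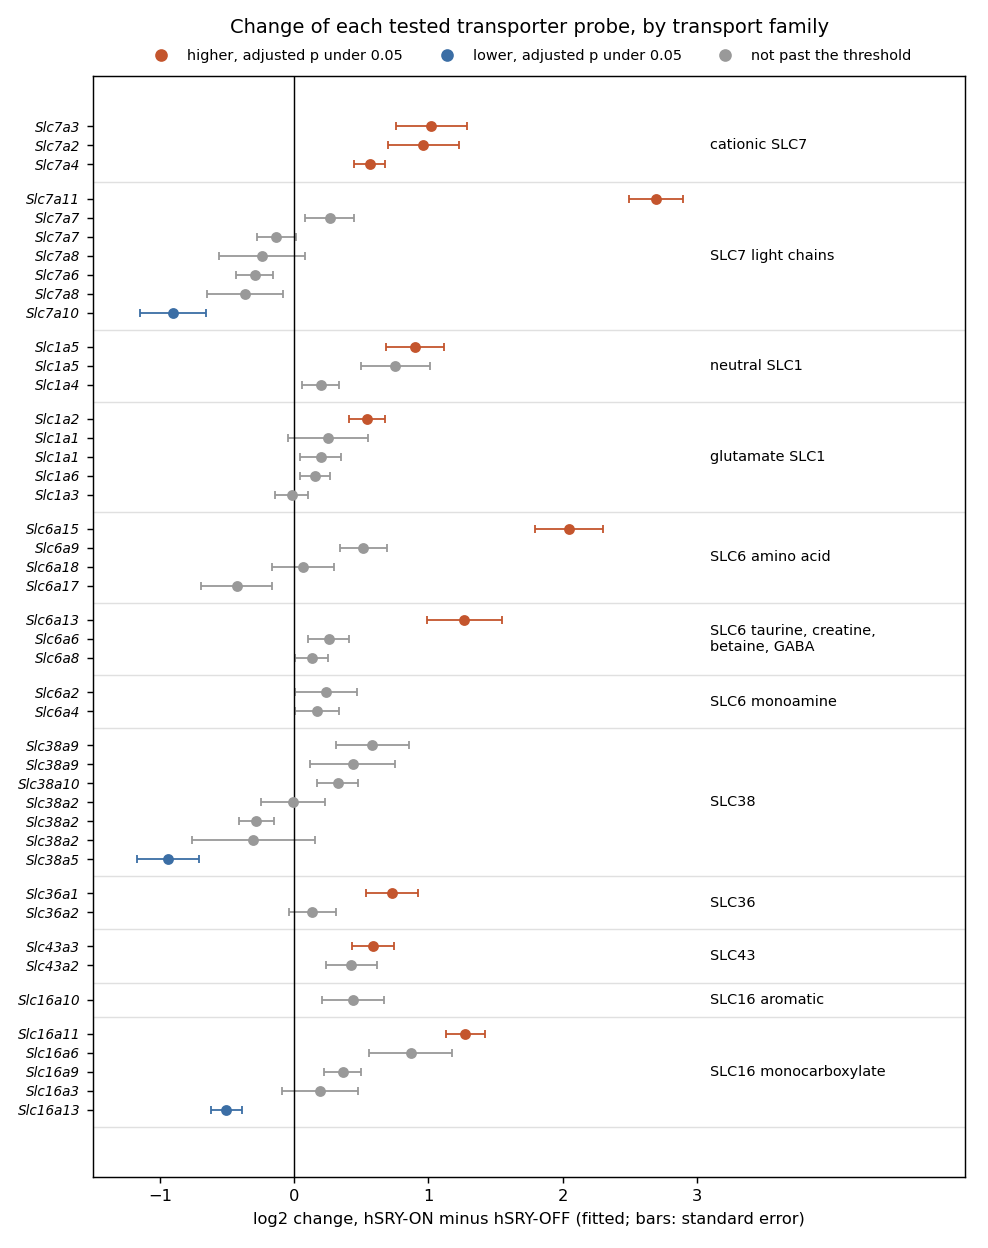
Log2 change (hSRY-ON minus hSRY-OFF, horizontal axis) of each of the 44 tested transporter probes, grouped by transport family; points are fitted changes and bars their standard errors. The 11 orange points (higher) spread over most families, and the 3 blue points (lower) are Slc7a10, Slc38a5 and Slc16a13.

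Among the SLC7 light chains, Slc7a11 showed the largest change of any transporter gene tested, while its relatives fell or did not pass the test. Slc7a11 encodes the cystine and glutamate exchanger xCT, which supplies cystine for glutathione. Its normalized log2 intensity was 4.81, 4.73 and 4.90 in the hSRY-OFF mice and 7.58, 7.08 and 7.86 in the hSRY-ON mice. Detection was absent in 3 of 3 hSRY-OFF arrays and present in 3 of 3 hSRY-ON arrays, so the groups lay far apart and the size of the change is a bound. After background correction, the level was at least 4.65-fold higher in hSRY-ON (fitted log2 change 2.70, SE 0.20, adjusted p = 0.000691). Without background correction the fitted log2 change was 1.02, below that bound (2.22 on the log2 scale), and the call remained.

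The promoter of Slc7a11 is shown because it holds copies of the element that ATF4 and C/EBP factors bind, and Slc7a11 is a textbook ATF4 target. The window runs from 250 bases before to 50 bases after the start on the minus strand, at chr3:50443564-50443863 (RefSeq, GRCm38.p6), and capitals mark the letters TGATGNAA on either strand.
Slc7a11: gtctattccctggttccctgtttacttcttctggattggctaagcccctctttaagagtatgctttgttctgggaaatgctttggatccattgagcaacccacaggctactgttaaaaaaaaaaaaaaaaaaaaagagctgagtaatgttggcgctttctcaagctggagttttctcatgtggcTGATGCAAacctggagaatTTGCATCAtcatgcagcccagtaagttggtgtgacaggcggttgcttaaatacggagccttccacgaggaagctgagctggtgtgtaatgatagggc
The forward copy begins 66 bases and the reverse copy 47 bases before the start. In the RefSeq promoter table, 3.97% of 32851 windows of this length hold the element, and so do 4 of the 66 windows (6.06%) of the 45 transporter genes listed there, those of Slc7a11, Slc1a4 and Slc7a7. Slc1a4 and Slc7a7 did not pass the test. These matches describe the letters only.

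Slc7a10, which encodes a carrier of small neutral amino acids including D-serine, was the light chain that fell. It read 7.66, 7.76 and 8.04 in hSRY-OFF and 7.42, 6.49 and 6.84 in hSRY-ON. The groups did not overlap, although hSRY-ON replicate 1 lay close to the hSRY-OFF values, and the level was 1.87-fold lower (log2 change -0.90, SE 0.24, adjusted p = 0.0344). Slc7a7, the light chain of the cationic and neutral amino acid exchanger y+LAT1, did not pass the test at either probe. The brighter probe read 8.56, 8.65 and 8.50 in hSRY-OFF and 8.69, 8.30 and 8.32 in hSRY-ON, a log2 change of -0.13 (adjusted p = 0.526), and the other differed by 0.26 (adjusted p = 0.323). Slc7a8, the light chain of the neutral exchanger LAT2, varied widely within hSRY-ON. It read 8.51, 8.74 and 8.62 in hSRY-OFF and 7.62, 8.80 and 8.36 in hSRY-ON, with adjusted p = 0.372. Slc7a6, of the same exchanger group as Slc7a7, differed by -0.29 (adjusted p = 0.159). The heavy chain Slc3a2, the common partner of these light chains and of xCT, was detected on none of the arrays by its 1 probe (mean 4.90 in hSRY-OFF and 5.17 in hSRY-ON), and Slc7a9, Slc7a12, Slc7a13 and Slc7a15 did not pass the filter. Slc7a5 has no row under that symbol and was not analysed here.

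The cationic transporters Slc7a2, Slc7a3 and Slc7a4 each rose at 1 probe. Slc7a2, which brings arginine into macrophages among other cells, read 6.0, 6.15 and 6.04 in hSRY-OFF and 6.60, 7.65 and 6.83 in hSRY-ON. All 3 hSRY-ON mice were above all hSRY-OFF mice, with hSRY-ON replicate 2 highest, for a 1.95-fold higher level (log2 change 0.96, SE 0.26, adjusted p = 0.0355). The other Slc7a2 probes were detected on no array and were not tested. Slc7a3, an arginine carrier known best from neurons, read 5.01, 4.89 and 5.11 in hSRY-OFF, where this probe was not detected, and 5.54, 6.62 and 5.93 in hSRY-ON. After background correction, the level at this probe was at least 1.67-fold higher (fitted log2 change 1.02, adjusted p = 0.0288). A second Slc7a3 probe, detected on 1 hSRY-OFF array and 0 hSRY-ON arrays and not tested, had means of 5.14 and 5.21. Slc7a4, a relative whose own transport activity is not established, was the least variable, at 7.72, 7.65 and 7.70 against 8.30, 8.12 and 8.34, a 1.48-fold rise (adjusted p = 0.0138). The probes of Slc7a1, the widely expressed cationic transporter, and of Slc7a14 did not pass the filter. Slc7a2 and Slc7a3 lost their calls without background correction, with log2 changes of 0.41 and 0.30 (adjusted p = 0.0532 and 0.0581), and the part of macrophage RNA in these values was not tested.

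**Figure D2:**
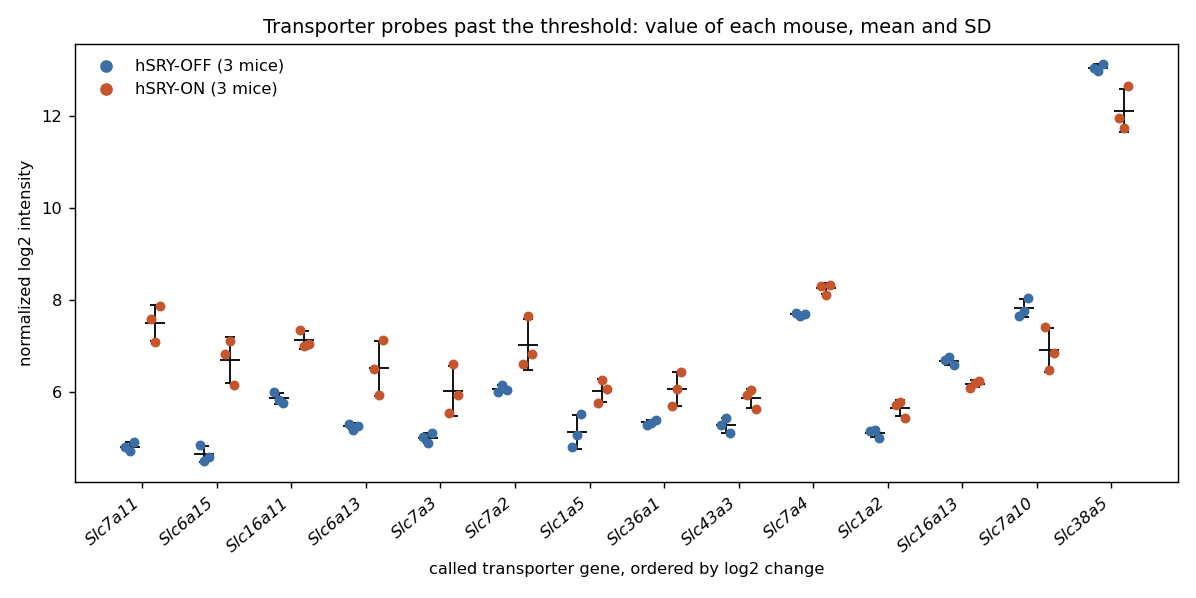
Normalized log2 intensity (vertical axis) of the 14 called transporter probes in each of 3 hSRY-OFF mice (blue) and 3 hSRY-ON mice (orange), ordered by log2 change; long lines mark means and whiskers the SD. The hSRY-ON points are more scattered than the hSRY-OFF points at Slc7a2, Slc6a13 and Slc38a5. The groups overlap at none of the 14, which were picked by this same comparison and so are no separate evidence. Non-overlap was found at 47.7% of tested transporter probes and 46.6% of all tested probes.

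In the SLC1 family the glutamine exchanger Slc1a5 rose, and most glutamate carriers did not pass the test. Slc1a5 read 4.80, 5.07 and 5.52 in hSRY-OFF and 5.77, 6.27 and 6.05 in hSRY-ON. The groups were separate but close, and the level was 1.87-fold higher (log2 change 0.90, SE 0.22, adjusted p = 0.0230). Without background correction the log2 change was 0.26 and the call was lost (adjusted p = 0.0560). Its other tested probe gave 0.75 with an adjusted p of 0.0673, and its values overlapped between groups. Slc1a4, the related exchanger of serine, alanine and cysteine, read 10.26, 10.37 and 10.44 against 10.48, 10.42 and 10.77 (log2 change 0.20, adjusted p = 0.316).

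Of 5 glutamate transporter genes, 4 were tested and 1 rose. Slc1a2, the main glutamate carrier of astrocytes, was not detected in hSRY-OFF (5.15, 5.17 and 5.01) and was detected at 5.72, 5.79 and 5.44 in hSRY-ON. The difference was small, at least 1.28-fold after background correction (fitted log2 change 0.54, adjusted p = 0.0264). It was not called without background correction (adjusted p = 0.168). The other Slc1a2 probes were detected on no array and were not tested. Slc1a3, the other glial carrier, had nearly the same mean in both groups, 10.59 ± 0.01 and 10.57 ± 0.15 (SD, n = 3). Slc1a1 and Slc1a6 differed by 0.16 to 0.25 and did not pass, and Slc1a7 was not tested.

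The SLC6 amino acid transporters included another gene detected in hSRY-ON only. Slc6a15, a sodium-coupled carrier of branched-chain amino acids and proline known mainly from brain, read 4.85, 4.50 and 4.59 in hSRY-OFF and 6.83, 7.11 and 6.14 in hSRY-ON. It was detected on none of the hSRY-OFF and all hSRY-ON arrays. After background correction its level was at least 2.65-fold higher (fitted log2 change 2.05, SE 0.25, adjusted p = 0.00276). Without background correction the fitted log2 change was 0.70, below that bound (1.40 on the log2 scale), and the call remained. The other 2 probes of Slc6a15 were detected on no array. The neuronal markers Snap25, Nefl and Syt1 were likewise detected on no array. Slc6a9, the glycine transporter, read 9.59, 9.99 and 9.75 against 10.43, 10.45 and 9.99. The groups came close without overlapping, and the log2 change of 0.52 had an adjusted p of 0.0676. Slc6a17 and Slc6a18 differed by -0.43 and 0.07 and did not pass, and Slc6a5, Slc6a7, Slc6a14 and Slc6a19 were not tested.

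Among SLC6 carriers of taurine, creatine and GABA, Slc6a13 rose and the bright Slc6a6 did not pass. Slc6a13, which transports GABA and taurine, read 5.31, 5.18 and 5.26 in hSRY-OFF, where 1 of 3 arrays detected it, and 6.50, 5.93 and 7.13 in hSRY-ON. Its hSRY-ON values spread over more than 1 log2 unit and all exceeded the hSRY-OFF values, a 2.41-fold higher level (log2 change 1.27, SE 0.28, adjusted p = 0.0177). Without background correction the log2 change was 0.41, and the call remained (adjusted p = 0.0349). Slc6a6, the taurine transporter, had the brightest probe of the families, at 13.31, 13.26 and 13.09 against 13.30, 13.74 and 13.40. The groups overlapped, and the log2 change was 0.26 (adjusted p = 0.243). The creatine transporter Slc6a8 differed by 0.13, and the monoamine transporters Slc6a2 and Slc6a4, which clear noradrenaline and serotonin, by 0.24 and 0.17, with adjusted p between 0.455 and 0.477.

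Slc38a5, a sodium-coupled carrier of glutamine, histidine and other neutral amino acids, showed the largest fall. It read 13.05, 12.99 and 13.14 in hSRY-OFF and 11.97, 11.74 and 12.65 in hSRY-ON. The hSRY-OFF mice agreed closely while hSRY-ON replicate 3 lay between them and the other hSRY-ON mice, and the level was 1.91-fold lower (log2 change -0.94, SE 0.23, adjusted p = 0.0253). In raw intensity the probe gave 8223, 7250 and 10147 in hSRY-OFF and 3814, 3622 and 7022 in hSRY-ON. Without background correction the log2 change was -0.91. The same hSRY-ON replicate 3 also kept the highest summed level of the proliferation markers among hSRY-ON mice (12.37, with 11.24 and 11.29 in the others), whose part in the result was not tested.

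The promoter of Slc38a5 is shown as that of the bright member that fell. It lies at chrX:8271131-8271430 on the plus strand (RefSeq, GRCm38.p6), and capitals mark an E-box, CACGTG, the letters bound by MYC and related factors.
Slc38a5: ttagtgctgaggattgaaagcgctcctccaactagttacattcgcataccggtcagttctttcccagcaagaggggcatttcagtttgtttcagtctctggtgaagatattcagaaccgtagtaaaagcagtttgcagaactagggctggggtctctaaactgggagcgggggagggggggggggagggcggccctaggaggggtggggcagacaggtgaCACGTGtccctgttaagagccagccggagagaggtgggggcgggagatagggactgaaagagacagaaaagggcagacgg
The E-box begins 30 bases before the start, and 7.15% of all windows hold one. Among called genes, Slc36a1, which rose, also has E-boxes in its window. The core bound by SRY and SOX factors, AACAAT on either strand, was found in none of the windows of the 7 called genes with an entry, in 2 of 66 transporter windows and in 10.7% of all windows. The letters TGACNNNGC, which the antioxidant regulator NRF2 binds, were present on either strand at Slc36a1 and Slc6a13 among called genes and in 12.4% of all windows. Slc6a15, Slc7a2, Slc7a3, Slc7a4, Slc1a5, Slc43a3 and Slc16a13 had no entry. An absent match says only that these letters are not in these windows.

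The remaining SLC38 genes did not pass the test. Slc38a2, the amino acid-responsive importer of neutral amino acids, read 11.94, 12.07 and 12.06 against 11.54, 11.86 and 11.83 at its brightest probe. These groups did not overlap, and the log2 change of -0.28 had an adjusted p of 0.154. Its other tested probes differed by -0.31 and -0.01. Slc38a9, the lysosomal arginine sensor, differed by 0.58 and 0.44 at its 2 tested probes with adjusted p = 0.149 and 0.337, and Slc38a10 by 0.32 (adjusted p = 0.157). Slc38a1, Slc38a3, Slc38a4, Slc38a8 and Slc38a11 were not tested.

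Slc36a1, a proton-coupled exporter of small amino acids from lysosomes, read 5.29, 5.34 and 5.39 in hSRY-OFF and 5.70, 6.06 and 6.44 in hSRY-ON. The groups were separate, with a 1.66-fold higher level (log2 change 0.73, SE 0.19, adjusted p = 0.0309). Slc43a3, a relative of the branched-chain carriers now known for nucleobase transport, read 5.28, 5.43 and 5.11 against 5.92, 6.03 and 5.63, a 1.5-fold rise (adjusted p = 0.0310). Both probes were dim, detected on 2 of 3 hSRY-OFF arrays, and both calls were lost without background correction (adjusted p = 0.0943 and 0.143). Slc43a2, a carrier of large neutral amino acids, read 5.41, 5.04 and 5.43 against 5.66, 6.04 and 5.46 and did not pass (adjusted p = 0.138). Slc36a2 differed by 0.13, Slc36a3 was not tested, and Slc43a1 has no row under that symbol and was not analysed here.

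The SLC16 family moved in both directions. Slc16a11, a monocarboxylate carrier studied for its link to lipid metabolism, read 6.0, 5.82 and 5.75 in hSRY-OFF and 7.36, 7.0 and 7.04 in hSRY-ON. It was detected on all 6 arrays with little spread in either group, and rose 2.42-fold (log2 change 1.27, SE 0.14, adjusted p = 0.00214). Without background correction the log2 change was 0.51, and the call remained (adjusted p = 0.00375). Slc16a13, its relative, fell. It read 6.69, 6.76 and 6.59 in hSRY-OFF and 6.09, 6.19 and 6.25 in hSRY-ON, a 1.42-fold lower level with narrow spread (log2 change -0.50, SE 0.11, adjusted p = 0.0191), and was not called without background correction (adjusted p = 0.0765).

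The other SLC16 genes did not pass. Slc16a3, the lactate exporter of glycolytic cells, read 5.26, 5.29 and 5.50 against 5.0, 6.18 and 5.45 and overlapped widely. Slc16a10, which carries aromatic amino acids, read 6.61, 6.35 and 6.31 against 6.66, 7.38 and 6.55, with a log2 change of 0.44 (adjusted p = 0.200). Its highest value was that of hSRY-ON replicate 2. Slc16a6 and Slc16a9 were higher without overlap, by 0.87 and 0.36, with adjusted p of 0.0768 and 0.0887. Slc16a1, the widespread lactate and pyruvate carrier, and Slc16a4, Slc16a7, Slc16a8, Slc16a12 and Slc16a14 were not tested.

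**Figure D3:**
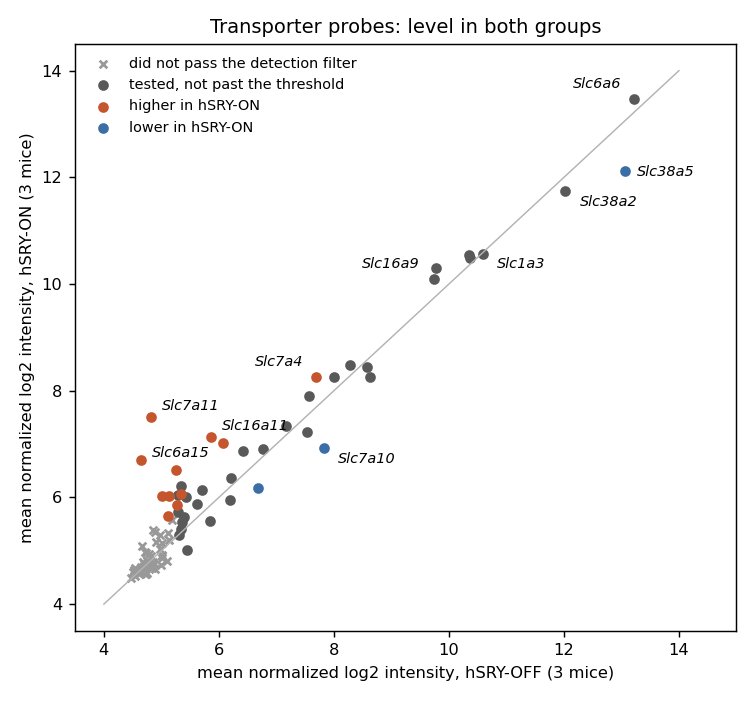
Mean normalized log2 intensity of every transporter probe in hSRY-OFF (horizontal axis) and hSRY-ON (vertical axis), 3 mice each; crosses are probes that did not pass the detection filter and the grey line marks equal means. Every orange point (higher) except Slc7a4 has a mean of at most 6.07 in hSRY-OFF, and Slc38a5 is the bright probe below the line.

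The hSRY-ON mice varied more than the hSRY-OFF mice at these probes. The median SD over tested transporter probes was 0.13 in hSRY-OFF and 0.30 in hSRY-ON, with 0.13 and 0.22 over all tested probes. The array farthest from the hSRY-OFF mean was that of hSRY-ON replicate 2 at 8 of the 14 called probes and 26 of all 44, that of replicate 3 at 4 and 9, and that of replicate 1 at 2 and 9. Thus hSRY-ON replicate 2 was most often the array farthest out at the transporter probes. The same count was not made over all tested probes, so a deviation of the whole array cannot be told apart. This mouse also had the highest summed macrophage level (15.51), whose part in the spread was not tested.

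Genes of amino acid handling outside these families gave a mixed picture, counted at 1 probe a gene. Beside the list counts that follow, 13.6% of all tested probes were called higher and 13.3% lower. Of 20 tested ATF4 target and amino acid response genes, 4 rose and 3 fell, with a median log2 change of 0.35. The stress-response regulator Nupr1 rose by 1.54 (adjusted p = 0.00378), Phgdh, which starts serine synthesis, changed by -0.74 (adjusted p = 0.00905), and Aldh18a1, which starts proline synthesis, by -1.04 (adjusted p = 0.00853). Sesn2, Trib3 and Gpt2 also rose, by 1.18, 0.71 and 0.63, while Shmt2 changed by -0.65. Atf4 itself read 10.13, 10.02 and 10.40 against 10.45, 9.67 and 9.54, and Asns, the asparagine synthetase that is a standard reporter of ATF4 activity, differed by -0.23 (adjusted p = 0.546). Members of the same list thus moved in both directions, Phgdh, Shmt2 and Aldh18a1 being lower and Nupr1, Sesn2, Trib3 and Gpt2 higher.

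Of 15 tested genes of amino acid sensing and mTORC1, 5 rose and 1 fell (median 0.17). Deptor, an inhibitor within the mTOR complexes, rose by 1.25 (adjusted p = 0.0156), and Sesn1, a stress-induced inhibitor of mTORC1, by 1.03 (adjusted p = 0.0270). Flcn, Fnip1 and Rragb, which act in nutrient signalling at the lysosome, rose by 0.63, 0.49 and 0.60. Mlst8, a core subunit, changed by -0.49 (adjusted p = 0.0259). None of the 5 rises of this list was called when the threshold was 0.01.

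Of 15 tested enzymes of amino acid metabolism, 5 rose and 3 fell (median 0.30). Arg2, the mitochondrial arginase, read 5.90, 5.25 and 5.94 in hSRY-OFF and 8.22, 8.16 and 7.88 in hSRY-ON, an increase of 2.39 (adjusted p = 0.00105). Cdo1, which begins cysteine breakdown towards taurine, rose by 1.44 from 11.17, 11.04 and 11.19 to 12.48, 12.73 and 12.53 (adjusted p = 0.000924). Gamt, the last enzyme of creatine synthesis, changed by -1.49 (adjusted p = 0.00552).

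Of 13 tested amino acid and peptide carriers of other families, 6 rose and 0 fell, with a median of 0.51, or 0.44 with Slc17a8 at its bound. The lysosomal peptide carrier Slc15a3 rose by 1.52 (adjusted p = 0.0114), the mitochondrial basic amino acid carrier Slc25a29 by 1.29 (adjusted p = 0.0112) and the mitochondrial aspartate and glutamate carrier Slc25a12 by 0.76 (adjusted p = 0.0103). The lysosomal cystine exporter Ctns rose by 0.51, Slc25a18 by 1.16, and Slc17a8 was at least 1.36-fold higher. Of 4 partner proteins, Bsg and Emb, which carry monocarboxylate transporters to the membrane, were tested and did not pass (0.52 and 0.37, adjusted p = 0.0745 and 0.250). Of 7 macrophage markers tested on the same arrays, 5 rose, among them Cd68 by 1.33 and Marco by 2.55. Emr1 and Csf1r differed by 0.09 and 0.41 and did not pass (adjusted p = 0.826 and 0.305). The part of macrophage RNA in the values of lysosomal carriers was not tested.

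**Figure D4:**
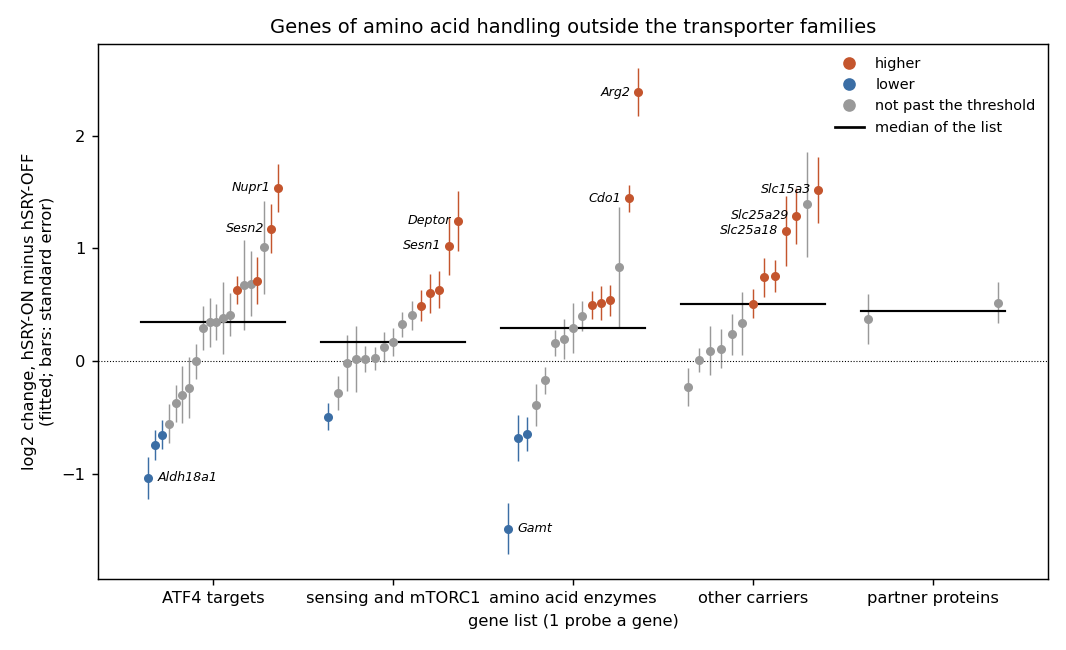
Log2 change (hSRY-ON minus hSRY-OFF, vertical axis) of tested genes in 5 lists of amino acid handling, 1 probe a gene, with standard errors; black lines are list medians. Orange and blue points (higher and lower) occur together in the lists of ATF4 targets, sensing and enzymes, and the list of other carriers has 6 orange and 0 blue points.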

How the data were processed

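Biotin-labelled cRNA made from total RNA was measured on 6 Illumina MouseRef-8 v2.0 arrays, 3 a group. The authors deposited a table with an unnormalized linear intensity and a detection p-value for each probe and array, and these deposited p-values compare a probe with negative controls. The software that summarised the beads is not given in the sources used here. The submitters' processing notes name limma, whereas the study's methods name TCC, a package for counts, and the values are intensities, which were analysed with limma 3.58.1 (R 4.3.3).

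Intensities were background-corrected by normexp with control parameters inferred from detection p-values (offset 16), then quantile-normalized and log2-transformed. Quantile normalization removes overall shifts between arrays, and the offset compresses changes of dim probes. A probe was tested where 3 or more of the 6 arrays detected it at p under 0.05. The linear model (lmFit, eBayes) held the group alone, and Benjamini-Hochberg adjustment covered all tested probes, with a threshold of 0.05. Probes of a gene were kept apart. For a probe detected on no array of a group, "at least" folds set the other group's mean against the average, per array, of whichever was higher, the probe's value or the lowest value detected. These bounds hold for background-corrected values only. Without that correction, changes smaller than the bound were fitted at Slc7a11, Slc6a15, Slc7a3 and Slc1a2. Bead numbers were not used, and the number of arrays limits precision. The table gives no chip or scan date, so no batch was examined.

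Groups and replicate numbers came from the sample labels. The labels name no litter, so whether the numbers pair mice is not known, and they were not used as pairs. Every called member gene was named, with values on every array, as were Slc3a2, Slc7a1, Slc7a2, Slc7a5, Slc7a7, Slc7a8, Slc7a11, Slc1a4, Slc1a5, Slc38a1, Slc38a2, Slc16a1, Slc16a3, Slc16a10, Slc36a1, Slc43a1, Slc43a2, Slc6a6 and Slc6a14 whatever their result, and of each pathway list the 3 genes with the smallest p. Other genes were named after their values were seen. The members and lists were chosen with earlier results of these data known. Older symbols were matched through RefSeq synonyms. Promoter windows are those of a RefSeq table (GRCm38.p6), in which 45 of 65 transporter genes had an entry. Alternatives were other background corrections, normalizations, filters, variance models, a stricter threshold, a replicate block and leaving out each array. The fit was tested on simulated data. The other neuron and Schwann cell markers, and the summed level of that list, are not reported here.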

Additional observations from a re-analysis of the deposited data

How the results depend on the processing

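Of the 14 called transporter probes, 11 higher and 3 lower, 7 kept their call without background correction, where 9 probes in all were called (7 higher), and 7 without it and with median scaling, where 8 were called (6 higher). These are 20.5% and 18.2% of tested transporter probes, against 29.6% and 26.7% of all probes. On probes detected on all 6 arrays 6 were called (3 higher), 26.1% against 29.4% of all probes, so that the share of higher calls went from 78.6% to 50%. On probes detected in both groups, an alternative chosen after seeing the data, 10 of 40 were called (7 higher), against 25.3% of all probes. At an adjusted p of 0.01 the number was 3 (3 higher and 0 lower), or 6.82% against 9.58% of all probes. Each filter tests fewer probes by construction, and the cause of the other differences was not tested. Leaving out each array in turn gave 3 to 13 called, 3 to 9 higher and 0 to 4 lower. In the same fits 11.2% to 32.3% of all probes were called. The calls fell most without hSRY-OFF replicates 1 or 2. With the replicate number as a replicate block, 12 of 44 were called, of which 11 were higher and 1 lower (91.7% higher). The share of all probes called in that fit was 19.2%. Same-numbered arrays did not deviate together (correlations of deviations -0.11, 0.10 and -0.09), and the numbers are not treated as pairs. With 3 arrays a group, these correlations cannot exclude shared litters. The median change of tested transporter probes stayed above 0 under all alternatives run, between 0.08 and 0.36, and no called gene changed sign. Slc16a3, which was not called, ranged from -0.13 without hSRY-ON replicate 2 to 0.47 without hSRY-ON replicate 1. In the lists, higher calls ranged from 2 to 9 for ATF4 targets, 0 to 7 for sensing and mTORC1 genes, 2 to 6 for enzymes and 0 to 7 for other carriers. At many dim probes the signal was close to background, so the sizes of their changes depend on the background correction.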
